A study of Mus musculus with 2 samples.

Results

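The cells described here were cones of uninjected *Pde6c*.GFP mice that held at least 5 counts of the 2 cone opsins together. They numbered 80 of the 85 cells of the uninjected library and 80 of the 151 cells deposited for both libraries. They were chosen and ordered by a measured value, the M-opsin share, which is the *Opn1mw* count of a cell divided by its summed *Opn1sw* and *Opn1mw* counts. The cells above the median share were set against the cells at or below it, and every other gene was compared between these sets. The labels give the strain as C57BL/6, while the study's methods give the mutant line as B6.CXB1-*Pde6c* cpfl1/J. The mice carried the *Pde6c* cpfl1 mutation, a mutation in the gene for the catalytic subunit of the cone phosphodiesterase, and an eGFP reporter under the *Chrnb4* promoter, which labels cones for sorting. Retinae were taken at PN24 without any injection, dissociated with papain and sorted by GFP into 1 plate, 1 cell per well. The other library of the series, from retinae that received GSK-J4 at PN14, was used only for 1 comparison of *Opn1mw* counts. All mice carried the mutation and the reporter, there was no wildtype library, and how many animals the plate pooled is not given in the sources used here.

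Mouse cones use a short-wavelength opsin, encoded by *Opn1sw*, and a medium-wavelength opsin, encoded by *Opn1mw*, and many cones hold both. S-opsin dominates in the ventral retina and M-opsin in the dorsal retina. The thyroid hormone receptor encoded by *Thrb*, with its partner *Rxrg*, is known to promote *Opn1mw* and to repress *Opn1sw*, while *Rorb*, *Rora*, *Crx* and *Neurod1* act on the opsin promoters or on the genes that control them.

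The values are counts per gene and cell after removal of PCR duplicates. The study summed the counts from both transcript ends, so 1 molecule may have given more than 1 count. A level is the mean over cells of counts per 10000 counts of the cell. A log-fold is the difference of the natural logs of (level + 1), higher-share cells minus lower-share cells, and 0.3 in size is the limit above which a gene was counted. All cells came from 1 library, so cells were not replicates of a condition and no p-value was computed for any difference. Intervals are exact, at 95%, and cover counting error only.

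The longest transcripts of the 2 opsin genes shared no identical run as long as a read. This matters because the share is a ratio of their counts. Alignment with mismatches was not examined. *Opn1sw* lies at chr6:29376671-29388468 on the minus strand and overlaps *Calu* on the other strand. *Opn1mw* lies at chrX:74127464-74150760 on the plus strand (GENCODE vM21, GRCm38). Whether the counting used strand is not given in the sources used here. Their longest transcripts, of 2410 and 1233 bases, held 0 shared runs of 45 bases, the read length of the gene-bearing read. The longest run in both was 17 bases. Since the transcripts differ in length, a share of 50% means equal counts, not equal numbers of transcripts per length. The shared run is shown as a measure of how far the pair can be told apart by exact sequence.
Longest run shared by both opsin transcripts: atggtggtggtgatggt

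The 250 bases before the RefSeq start of each opsin gene are shown because several of the regulators described below are known to act on opsin promoters (GRCm38.p6, strand of the gene). The *Opn1sw* start used is 29380513, so its window lies inside the GENCODE span given above, in which a longer transcript begins further upstream. Capitals mark AGGTCA, read on either strand as AGGTCA or TGACCT, the hexamer that thyroid hormone receptors and ROR proteins bind. The *Opn1sw* window at chr6:29380514-29380763 held it at -202 to -197 on the strand shown and at -132 to -127 on the other strand. The *Opn1mw* window at chrX:74127216-74127465 did not hold these letters. Neither window held TAATCC or its reverse GGATTA, a motif of *Crx* and *Otx2*. Of 32851 promoter windows of the same length, 14.0% held AGGTCA and 6.25% held TAATCC.
Opn1sw: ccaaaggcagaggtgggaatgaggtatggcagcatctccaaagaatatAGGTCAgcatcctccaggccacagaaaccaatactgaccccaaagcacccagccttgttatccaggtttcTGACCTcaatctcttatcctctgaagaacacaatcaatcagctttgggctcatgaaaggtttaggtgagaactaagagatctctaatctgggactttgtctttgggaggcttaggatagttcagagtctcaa
Opn1mw: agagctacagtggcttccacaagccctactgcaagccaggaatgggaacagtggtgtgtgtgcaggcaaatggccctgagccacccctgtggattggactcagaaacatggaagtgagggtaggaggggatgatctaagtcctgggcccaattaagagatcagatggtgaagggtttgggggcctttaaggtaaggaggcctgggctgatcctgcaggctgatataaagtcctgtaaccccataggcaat

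The share was spread over its whole range. It was lowest in a cell with 1 *Opn1mw* count among 1234 opsin counts and reached 100% in a cell with 12 *Opn1mw* counts among 12. It was at most 2% in 13 cells, between 2% and 5% in 17, between 5% and 10% in 13, between 10% and 25% in 16, between 25% and 50% in 7, between 50% and 75% in 2 and above 75% in 12. M-opsin was thus the larger count in 14 cells, and in 2 further cells the counts were equal. The median was 8.33%, that is 1 count in 12. At this value 2 cells lay just inside the lower-share set, and the cell just inside the higher-share set had 9.09%. The 5 cells left out held between 1 and 4 opsin counts, and 4 of the cells kept held exactly 5. The median split gave 39 higher-share and 41 lower-share cells. These sets held 407092 and 719140 counts in all. The pairs of summed counts given below are not corrected for this, so a gene of equal level has fewer counts in the higher-share cells.

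**Figure D1:**
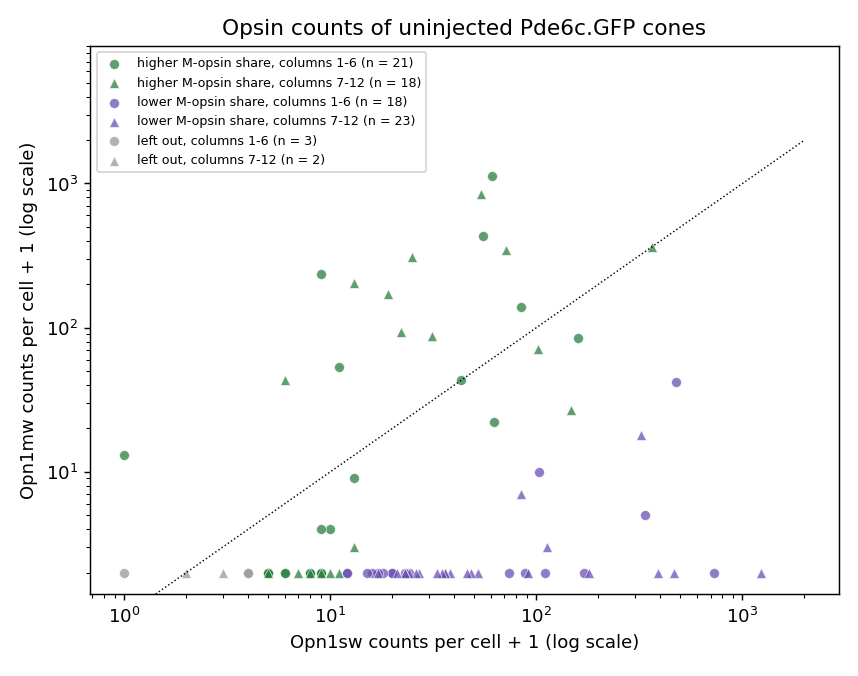
*Opn1mw* counts against *Opn1sw* counts of the 85 uninjected cells, each plus 1 on log axes, coloured by share and shaped by plate side (columns 1 to 6 or 7 to 12); the dotted line marks equal counts. The row of cells at the bottom holds 1 *Opn1mw* count each, and the 14 green cells above the line have more M-opsin than S-opsin counts.

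The M-opsin count had a floor of 1. No uninjected cell lacked *Opn1mw*, and 55 of 85 cells (64.7%, interval 53.6% to 74.8%) held exactly 1 count. Among the cells split, this was so in 35 of 41 lower-share cells and in 15 of 39 higher-share cells, so that in these 50 cells the share was fixed by the *Opn1sw* count alone. In the GSK-J4-treated library, 64 of 66 cells had no *Opn1mw* count and the highest had 303. Of the 17774 genes with a row, 20 were counted in each uninjected cell, and 10 of these had a lowest count of 1. *Pde6h*, the inhibitory subunit of the cone phosphodiesterase, was at exactly 1 count in 50 of the 85 cells and *mt-Cytb*, a subunit of respiratory complex III, in 52. Others of the 10 were *Cox8a*, at 1 count in 26 cells, *mt-Nd1* in 13, *mt-Atp6* in 7 and *Gngt2* in 3. *Vwa3b* was at 1 count in 2 cells, and *C030037D09Rik* and *Ccdc93* in 1 each. The cells at 1 count overlapped: *Pde6h* was at 1 in 42 of the 50 split cells with 1 *Opn1mw* count and in 4 of the 30 with more. For *mt-Cytb* this was so in 38 of the 50 and in 10 of the 30. What put these genes at 1 was not tested.

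The higher-share set therefore held 2 kinds of cell. The 15 with 1 *Opn1mw* count had few *Opn1sw* counts (4 to 10, median 7), shares of 9.09% to 20% and shallow profiles, with a median of 2918 counts and 725 genes. The 24 with 2 or more had a median share of 77.9%, a median of 85.5 *Opn1mw* counts, and 10023 counts and 1895 genes at the median. The lower-share cells had a median of 9831 counts and 2124 genes. For this reason levels are also given for the 15 and the 24 cells apart, and for the 13 cells with M-opsin as the larger count against the 39 with S-opsin as the larger count, all with at least 20 opsin counts. These sets were of similar depth, with medians of 10409 and 10744 counts, and their median shares were 89.4% and 3.03%. This last comparison was added after the values had been seen, and it shares most of its cells with the median split.

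Opsin levels themselves, which the split used, are given as a description. *Opn1sw* had 1458 counts in the higher-share and 5583 in the lower-share cells, with median levels of 20.8 and 42.4. *Opn1mw* had 4723 and 114 counts, with median levels of 10.6 and 1.22. The 2 opsins together had a median level of 70.1 in the higher-share cells, from 8.74 to 486, and of 44.5 in the lower-share cells, from 9.90 to 295. The ranges overlapped almost entirely.

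All 11 cone markers were found in at least 10% of the cells, and together they took 0.357% to 9.80% of the counts of a cell. The medians were 2.42% in the higher-share and 1.37% in the lower-share cells. These 11 include the 2 opsins, by which the cells were chosen and split, so these medians are a description only. The opsins alone had medians of 0.701% and 0.445%. Rod markers were also counted in every cell, at 0.0353% to 7.52% of the counts in the higher-share cells and 0.0380% to 1.51% in the lower-share cells. The rod-determining factors *Nrl* and *Nr2e3* had 0 counts in the higher-share cells and 11 and 10 counts in the lower-share cells. Müller glia markers ranged from 0% to 1.84% and from 0% to 4.54% of the counts. The lists for microglia and pigment epithelium had at most 10 and 17 counts in a set. The part of other cells' RNA in the differences below was not tested.

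Across the genes, 7467 besides the opsins were counted in at least 10% of the 80 cells. Of these, 1086 had a log-fold above 0.3, which is 14.5%, and 1082 had one below -0.3, also 14.5%. Many of these values came from single cells: when each gene was recomputed without the cell in which its level was highest, 389 and 578 remained past the limit. The plate sides were also taken apart, with 21 higher-share and 18 lower-share cells in columns 1 to 6 and 18 and 23 in columns 7 to 12. Log-folds above 0.3 within both sides were found for 295 genes (3.95%) and below -0.3 for 353 (4.73%). With the larger opsin count as the split, 1213 of 8142 genes (14.9%) were above and 1541 (18.9%) below. Only 108 genes (1.45%) were above 0.3 in the median split, in each plate side, by the larger opsin count and without their highest cell, and 191 (2.56%) were below -0.3 in all 5.

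**Figure D2:**
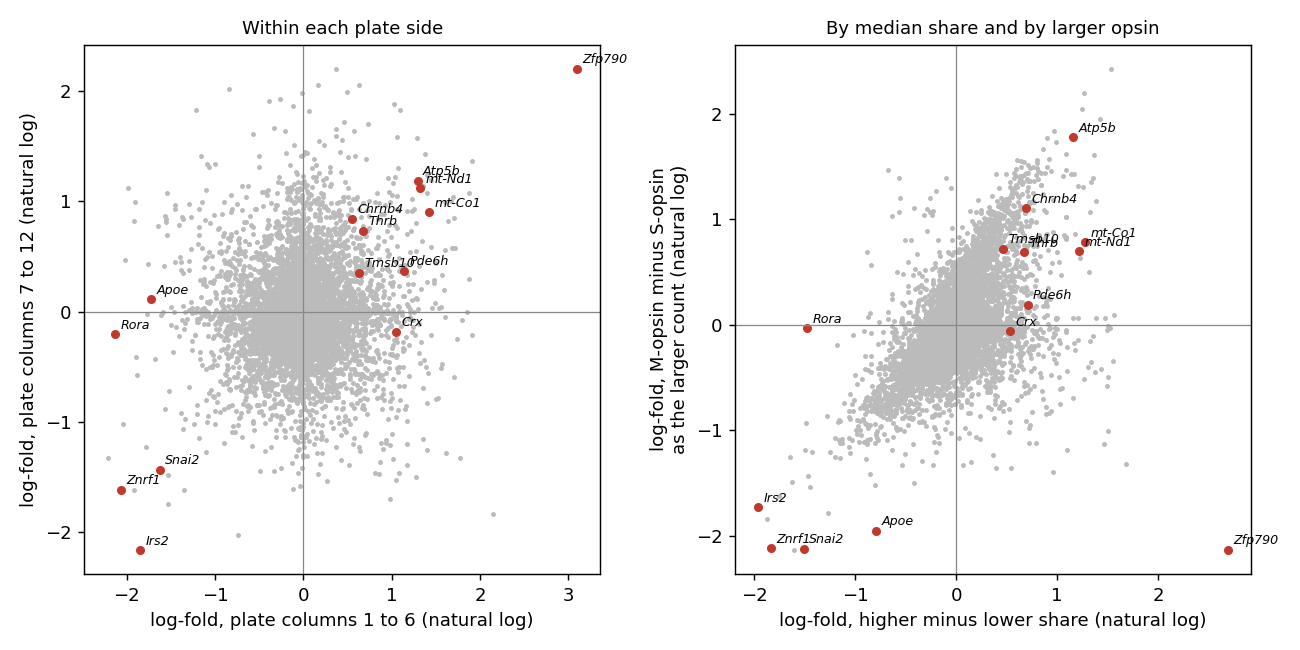
Log-folds of each gene (grey) in plate columns 1 to 6 against columns 7 to 12 on the left, and by median share against the larger opsin count on the right, with named genes in red; all axes are natural logs. *Thrb*, *Chrnb4*, *Atp5b* and *mt-Nd1* lie in the upper right of both panels, while *Zfp790* is at 2.69 by median share and at -2.14 by the larger opsin count.

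*Thrb*, the receptor that promotes M-opsin, had more counts in the higher-share cells. It lies at chr14:17660261-18038090 on the plus strand and overlaps *Gm24140*, *Gm48320* and *Gm48321* on the other. Its level per cell ran from 0 to 43.0 in the higher-share cells, with a median of 2.32, and from 0 to 20.7 in the lower-share cells, with a median of 1.39. The sets overlapped over most of their range, and the difference lay in the upper tail. *Thrb* had 315 counts (interval 281 to 352) in 28 of 39 higher-share cells and 195 (169 to 224) in 37 of 41 lower-share cells. The mean level was 6.09 against 2.61, a log-fold of 0.68. It was 0.67 in columns 1 to 6, 0.73 in columns 7 to 12 and 0.53 without the highest cell. Within the higher-share set, the mean level was 8.31 in the 24 cells with 2 or more *Opn1mw* counts and 2.55 in the 15 cells with 1 count, the latter close to that of the lower-share cells. In the cells with M-opsin as the larger count it was 9.06, with *Thrb* found in 11 of 13, against 4.06 in those with more S-opsin, where it was found in 38 of 39. Over all 80 cells the rank correlation of *Thrb* with the share was 0.12, but it was -0.28 within the 30 cells with 2 or more *Opn1mw* counts and -0.16 within the 50 with 1.

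**Figure D3:**
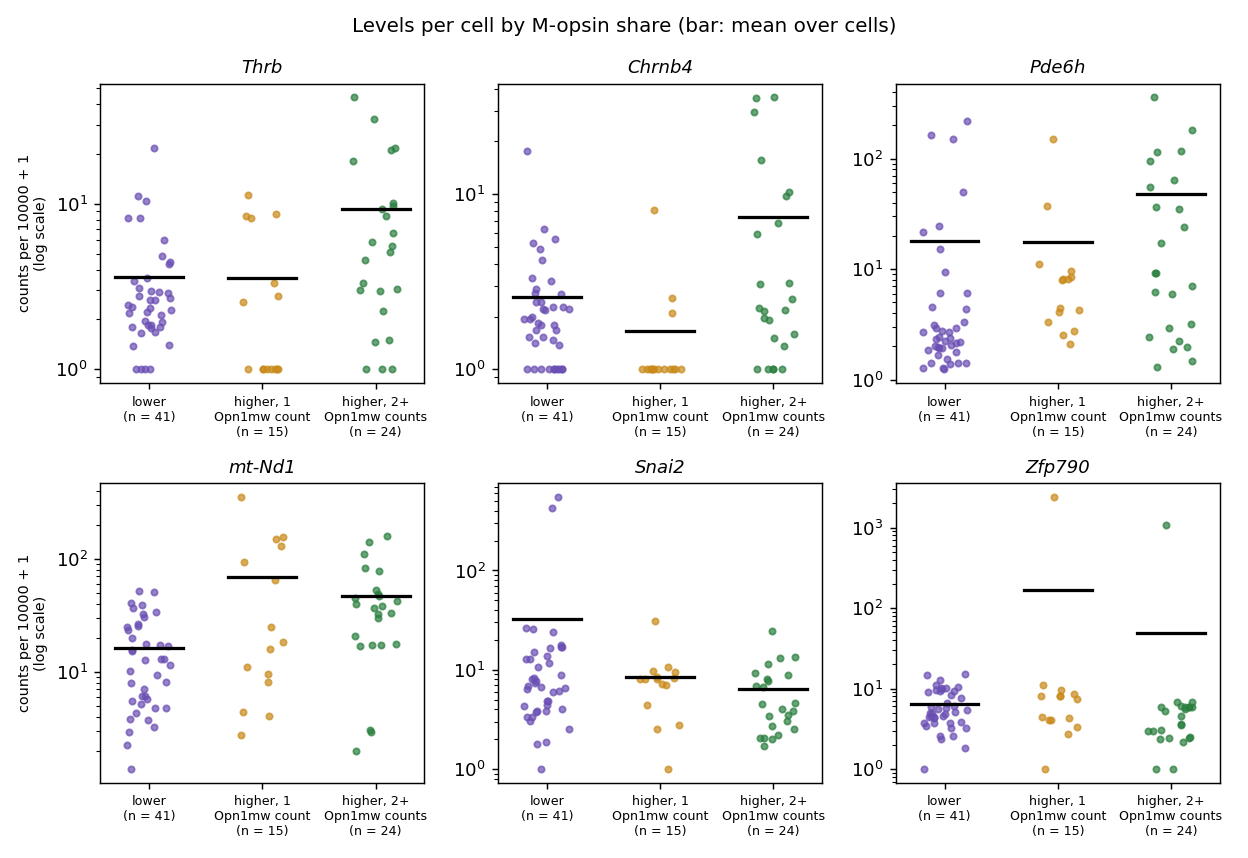
Counts per 10000 plus 1 (log axis) of 6 genes in each of the 41 lower-share cells, the 15 higher-share cells with 1 *Opn1mw* count and the 24 with 2 or more; bars are means over cells. *Thrb* and *Chrnb4* have their highest cells in the right column, *mt-Nd1* is higher in both higher-share columns, and the means of *Snai2* and *Zfp790* are carried by 2 cells each.

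The other opsin regulators did not move together. Of the 20 listed genes, 14 passed the filter, 2 (14.3%) were above 0.3, 3 (21.4%) below -0.3 and 9 between. Over all genes 14.5% were past each limit. The median log-fold was -0.08, beside -0.04 over all genes. *Crx*, the photoreceptor homeobox factor, had 65 and 56 counts and a log-fold of 0.54. That value was 1.05 in columns 1 to 6, -0.18 in columns 7 to 12, and -0.10 without its highest cell. *Rora* had 180 and 353 counts and the lowest log-fold of the list, -1.47. It was -2.13 and -0.20 in the plate sides, -0.25 without its highest cell and -0.03 by the larger opsin count. Its level reached 454 in 1 lower-share cell, while the medians were 1.19 and 3.78. *Sall3*, a factor known for activating S-opsin, had 10 counts in 7 cells and 64 in 15, a log-fold of -0.68, with 51.4% of its counts in 1 cell. *Nr1d1*, a clock-controlled repressor, had 43 and 117 counts and a log-fold of -0.39, which was -0.34 and -0.57 in the plate sides and -0.79 by the larger opsin count.

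The remaining regulators lay between the limits. *Rxrg*, the partner of the thyroid hormone receptor, had only 10 and 38 counts and a log-fold of -0.01, and *Rxra* 4 and 10 counts. *Rorb* was at 0.25, with -0.36 and 0.99 in the plate sides. *Neurod1*, which maintains *Thrb* expression, was at -0.16, with 127 and 123 counts, but at 0.65 by the larger opsin count. *Otx2* was at -0.18, *Esrrb* at -0.14, *Mef2d* at 0.17 and *Pias3* at 0.22. The dorsoventral factors *Nr2f1* and *Nr2f2* had 2 and 6 counts in the higher-share and 6 and 15 in the lower-share cells. *Nrl* and *Nr2e3*, given above, were counted only in lower-share cells and did not pass the filter. *Prdm1*, *Onecut1* and *Samd7* had at most 6 counts in a set, and differences of these 3 were not detectable at this depth.

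Genes that mark position in the retina had few counts. Of 17 listed dorsoventral genes, 6 passed the filter, 0 were above 0.3 and 1 (16.7%) was below -0.3, beside 14.5% over all genes. That gene was *Ephb3*, a ventral ephrin receptor, with 9 and 46 counts and a log-fold of -0.31. *Tbx3* was at 0.15, *Nr2f1* at -0.21 and *Tbx2* at -0.15, the last with 2 counts in 1 cell and 13 in 10. *Vax2*, which sets ventral identity, was named after its values had been seen: it had 0 counts in 39 higher-share cells and 23 counts in 5 lower-share cells, and 73.9% of these counts were in 1 cell. Of the genes for thyroid hormone handling only *Thrb* passed the filter, and *Dio2*, *Slc16a10* and *Thra* had at most 4 counts in a set.

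The list of opsin gene neighbours also holds *Fam19a3*, which lies on another chromosome than either opsin. Of its 6 genes, 3 passed the filter, 1 of them (33.3%, beside 14.5% over all genes) was above 0.3 and 0 were below. The median was 0.17. By the larger opsin count 0 were above and 1 below. *Tex28*, beside *Opn1mw*, was at 0.13 and *Ccdc136*, beside *Opn1sw*, at 0.17, with at most 26 and 17 counts in a set. *Calu*, *Tktl1* and *Fam19a3* did not pass, with at most 4, 1 and 13 counts in a set.

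*Chrnb4*, the nicotinic receptor subunit whose promoter drives the GFP used for the sort, was above 0.3 in the same 5 settings as *Thrb*. It lies at chr9:55028154-55048779 on the minus strand and overlaps *Gm47877* on the other. Its level ran from 0 to 34.7 in the higher-share cells and from 0 to 16.7 in the lower-share cells, with medians of 0.58 and 0.93. The medians thus went the other way from the means. It had 301 counts (268 to 337) in 22 cells against 103 (84.1 to 125) in 31 cells, mean levels of 4.19 and 1.60 and a log-fold of 0.69. This was 0.55 and 0.84 in the plate sides, 0.52 without the highest cell and 1.11 by the larger opsin count. Among the higher-share cells the mean was 6.40 with 2 or more *Opn1mw* counts and 0.65 with 1. *Chrna3*, its neighbour in the cluster, was at 0.04 with 15 and 7 counts. Since cells were sorted on GFP, the reporter gene's level and the choice of cells cannot be told apart.

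Genes of the light response were mixed. Of the 7 genes of cone transducin, phosphodiesterase and channel, 3 were above 0.3 and 1 below, with a median of 0.12, and by the larger opsin count 0 were above and 2 below. *Pde6h* was at 0.71, with 1049 and 756 counts. Its level ran from 0.29 to 359 and from 0.24 to 219, with medians of 7.08 and 1.39. Each of these medians was the level of a cell with 1 *Pde6h* count, so it reflects the depth of that cell. The median counts per cell were 2 and 1. By the larger opsin count its log-fold was 0.19. *Gnb3*, a transducin subunit, was at 0.30, with 0.82 and 0.15 in the plate sides and -0.09 after thinning each cell to 1412 counts. *Cngb3*, a subunit of the cone channel, was at 0.31 in all cells, at -0.52 in columns 7 to 12 and at -0.64 by the larger opsin count. *Pde6c*, which carries the mutation, had only 24 counts in 4 cells and 45 in 13, a log-fold of -0.63. *Gngt2* at 0.12, *Gnat2* at 0.10 and *Cnga3* at -0.30 lay within the limits. *Gngt2* was the best counted of the list, with 3271 and 4344 counts.

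Of 13 recovery genes past the filter, 2 were above and 3 below. *Grk1*, the opsin kinase, was at 0.96 with 28 and 17 counts, but at -0.48 in columns 7 to 12, at -1.40 by the larger opsin count and at -0.23 without its highest cell. *Guca1a*, which activates guanylate cyclase, was at 0.31 with 2332 and 2857 counts, and at 0.47 without its highest cell. *Pdc* (phosducin) was at -0.42 and *Gucy2e*, the cyclase itself, at -0.38. Of 11 outer segment genes, 1 was above and 2 below. The gene above was *Prph2*, of the disc rim, at 0.50, which was -0.50 and 1.41 in the plate sides and turned negative under most other settings. *Tulp1* was at 0.22, *Prom1* at -0.45 and *Cdhr1* at -0.38. Of 16 synapse genes, 3 were above and 1 below. *Cacna2d4* was at 0.68 and *Stx3* at 0.41, the latter 0.30 and 0.48 in the plate sides and 0.72 by the larger opsin count. *Cplx3* was at -0.42 and *Cacna1f* at -0.30. These shares lie close to or around the 14.5% in each direction over all genes, except that of the activation genes above, 42.9% of 7.

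Genes of energy metabolism were often above the limit. Over all genes 14.5% were above 0.3 and 14.5% below -0.3. Of the 2814 genes counted in at least 25% of the cells, 639 were above and 669 below, a larger part each way. Of the 13 proteins encoded in mitochondria, 8 (61.5%) were above 0.3 and 0 below, with a median of 0.41, and 7 were above in both plate sides. By the larger opsin count 7 were above and 2 below, with a median of 0.31. *mt-Nd1*, of complex I, had levels from 1.01 to 350 in the higher-share cells, with a median of 32.1, and from 0.38 to 50.4 in the lower-share cells, with a median of 11.7. Most higher-share cells lay above the lower-share median, and the ranges overlapped. Its log-fold was 1.22, with 1.32 and 1.12 in the plate sides and 0.69 by the larger opsin count. *mt-Nd5* was at 1.38 and *mt-Co1*, of complex IV, at 1.27. *mt-Cytb* was at 0.07 and *mt-Nd4l* at -0.22. The mitochondrial share of the counts had medians of 1.44% in the higher-share cells and 0.666% in the lower-share cells. It was 1.78% in the 15 higher-share cells with 1 *Opn1mw* count and 1.36% in the 24 with more, so it was higher in both. Depth, which was lower in the 15 cells, was similar in the 24, and its part in the difference was not tested. Over 5% were 2 higher-share cells and 1 lower-share cell.

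Nuclear genes of the respiratory chain went the same way. Of 78 past the filter, 36 (46.2%) were above 0.3 and 8 (10.3%) below, beside 14.5% each way over all genes. Genes counted in at least 25% of the cells had larger parts past each limit, as given above. The median was 0.27, and 12 were above and 4 below within both plate sides. By the larger opsin count 41 were above and 14 below. *Atp5b*, the catalytic subunit of ATP synthase, had 579 counts (533 to 628) in 33 cells and 220 (192 to 251) in 39 cells. Its level ran from 0 to 264 and from 0 to 83.3, with medians of 3.01 and 1.19. The log-fold was 1.16, with 1.29 and 1.18 in the plate sides, 1.78 by the larger opsin count and 0.71 without the highest cell. Its mean was 25.6 in the 24 cells with 2 or more *Opn1mw* counts and 3.19 in the 15 with 1, against 4.65 in the lower-share cells. *Ndufa6* had the highest log-fold of the list, 1.47, but was at -1.13 by the larger opsin count. *Ndufa9* at -0.75 and *Uqcc3* at -0.70 were lowest, and *Ndufa9* was below the limit in both plate sides too. The summed share of this list in a cell had medians of 5.63% in the 24 cells, 2.57% in the 15 cells and 2.89% in the lower-share cells.

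Of 81 cytosolic ribosomal protein genes, 27 (33.3%) were above and 5 (6.17%) below, beside 14.5% each way over all genes. Of the 2814 genes counted in at least 25% of the cells, 639 were above and 669 below, a larger part than 14.5%. The median was 0.14, and 8 were above and 2 below in both plate sides. *Rpl36a* was at 1.21, *Fau* at 1.08, *Rpl34* at -0.73 and *Rpl29* at -0.61. *Fau* was at -0.07 by the larger opsin count. Their summed share had medians of 4.47% in the 24 cells, 2.49% in the 15 and 3.06% in the lower-share cells.

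**Figure D4:**
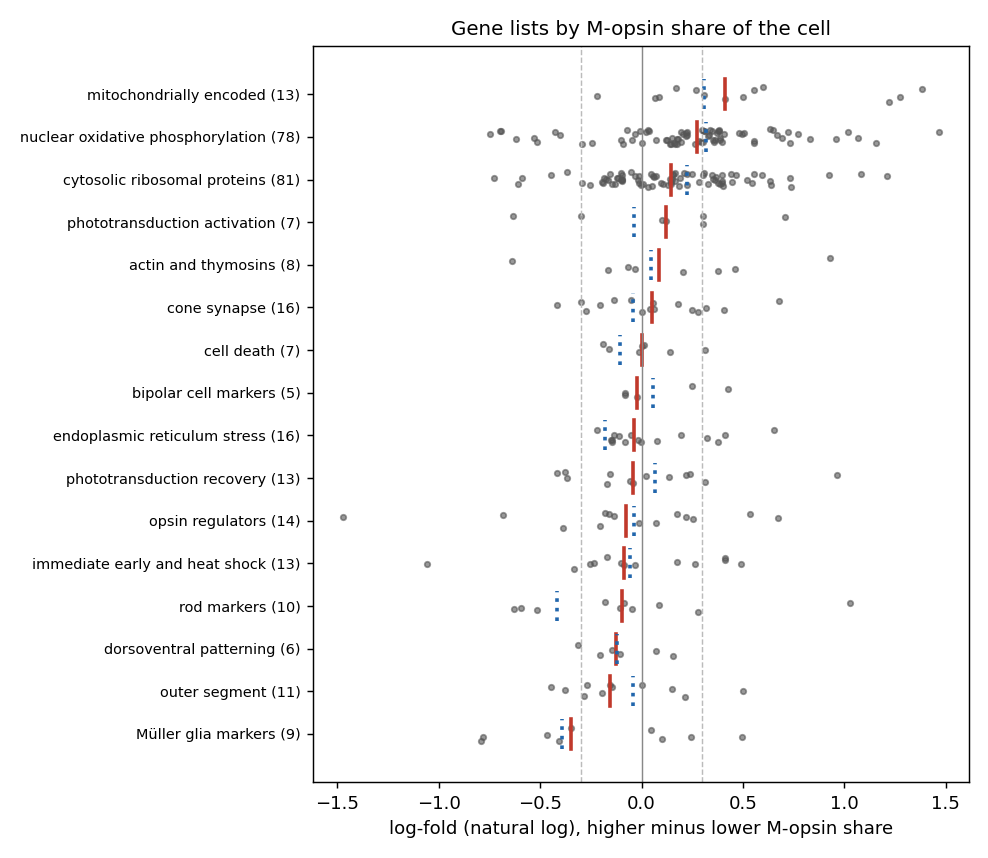
Log-folds (natural log) of the members of each gene list with at least 5 members past the filter, their number in brackets; red lines are medians by median share and dotted blue lines medians by the larger opsin count, grey dashes mark 0.3 and -0.3. The mitochondrially encoded list has the highest median, 0.41, and the Müller glia list the lowest, -0.35.

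Of the 8 actin and thymosin genes, 3 (37.5%) were above and 1 (12.5%) below, beside 14.5% each way over all genes. *Tmsb10*, a thymosin that binds actin monomers, was among the best counted genes, with 7270 and 7010 counts. Its level ran from 13.7 to 608, with a median of 160, and from 15.7 to 379, with a median of 76.6. The log-fold was 0.46, with 0.63 and 0.35 in the plate sides and 0.72 by the larger opsin count. *Actg1* was at 0.93 and above the limit in both sides. *Actb* was at -0.64, but at 0.50 in columns 7 to 12 and 0.05 without its highest cell, and *Pfn1* was at -0.16.

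Among the markers of other cells, Müller glia genes were the lowest list, with a median of -0.35. Of 9, 5 (55.6%) were below -0.3 and 1 (11.1%) above 0.3, beside 14.5% each way over all genes. The median was -0.03 and 0.03 in the plate sides. *Apoe* was at -0.79 and *Car14* at -0.78, with 56.8% and 65.8% of their counts in 1 cell, and both lay near 0 without their highest cell. *Clu* was at 0.50 and *Slc1a3* at 0.24. Of 10 rod genes, 1 (10%) was above and 3 (30%) below, with a median of -0.10. *Pde6g*, the rod phosphodiesterase inhibitor, was at 1.03 and at -0.76 by the larger opsin count. *Gngt1* was at 0.28, *Cnga1* at -0.63 and *Gnb1* at -0.60. By the larger opsin count 6 rod genes were below and 1 above. Bipolar genes gave 1 (20%) above and 0 below of 5. Amacrine, ganglion cell and pigment epithelium genes gave none past the limit among 2, 2 and 1. No microglia gene passed the filter.

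Of 16 genes of endoplasmic reticulum stress, 4 (25%) were above 0.3 and 0 below, beside 14.5% each way over all genes, with a median of -0.04, and by the larger opsin count 1 was above and 4 below. *Edem1* was at 0.65 and *Atf3* at 0.41, with 24 or fewer counts in each set, and *Pdia3* at -0.22 and *Ddit3* at -0.15. Cell death genes gave 1 (14.3%) above and 0 below of 7. Immediate early and heat shock genes gave 3 (23.1%) above and 2 (15.4%) below of 13. Genes of H3K27 methylation and demethylation gave none past the limit among 4. *Xist*, the X inactivation RNA, was at 0.65, but at -0.18 in columns 1 to 6 and at -0.21 by the larger opsin count. Of 63 olfactory and vomeronasal receptor genes, which cones are not known to use, 5 (7.94%) were above and 3 (4.76%) below.

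The largest log-folds rested on few cells. Among genes counted in at least 25% of the cells, the highest was *Zfp790*, a zinc finger gene at chr7:29816114-29831005, at 2.69. Its level ran from 0 to 2405 in the higher-share and from 0 to 14.2 in the lower-share cells, with medians of 3.56 and 4.07, so that the typical cell of each set did not differ in the direction of the mean. By the larger opsin count it was at -2.14. *Gm12292* at 1.68, *Dlk1* at 1.55, *Nudt2* at 1.53, *Cystm1* at 1.52, *Clstn2* at 1.51, *St6gal1* at 1.50, *Itpr2* at 1.50, *Cst3* at 1.50 and *Pam16* at 1.49 followed. A single cell held 95.5% of the *Nudt2* counts and 71.9% of those of *Cystm1*. Of these 10 genes, *Nudt2* alone stayed positive by the larger opsin count, at 2.43.

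The lowest was *Irs2*, an insulin receptor substrate, at -1.96, with 27 and 525 counts. It was followed by *Gm47127* at -1.87, *Znrf1* at -1.83, *Gm43657* at -1.75, *Prss43* at -1.64, *Nob1* at -1.63, *Fam120a* at -1.61, *Snai2* at -1.51, *Dmxl2* at -1.50 and *Alkbh1* at -1.49. *Snai2*, a zinc finger repressor, had 243 and 4077 counts, with levels from 0 to 30.2 and from 0 to 549 and medians of 5.84 and 5.92. A single cell held 48.0% of its counts. The 2 highest cells of *Snai2*, with 2074 and 1567 counts, were lower-share cells on opposite plate sides. Each plate side, and the setting without the highest cell, therefore kept 1 of them. *Znrf1* had 26 and 1211 counts, 72.0% of them in 1 cell. All 10 stayed negative in each plate side, by the larger opsin count and without their highest cell, but *Alkbh1* was at -0.04 in columns 1 to 6, and *Gm47127*, *Gm43657* and *Nob1* were positive, at 2.08, 1.87 and 1.59, when at least 20 opsin counts per cell were required, and *Irs2* was at -0.03 with at least 10.

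Ranking cells rather than averaging them gave other genes. Over the 80 cells, which share a library and differ in depth, the levels with the highest Spearman correlation with the share were *Pde6h* (0.46), *Ndufa4* of the respiratory chain (0.41), *mt-Co1* (0.39), *mt-Nd1* (0.38) and the nuclear RNA *Malat1* (0.37). The share itself had a correlation of 0.43 with the mitochondrial percentage, -0.22 with total counts and -0.46 with *Opn1sw* counts. Within the 30 cells with 2 or more *Opn1mw* counts, the value for *Pde6h* was -0.17, for *Ndufa4* 0.29, for *mt-Co1* 0.23, for *mt-Nd1* 0.08 and for *Malat1* 0.38. Within the 50 cells with 1 count, whose share was fixed by the *Opn1sw* count alone, the values were 0.60, 0.11, 0.33, 0.24 and 0.48 in this order. The high rank of *Pde6h* thus did not hold among cells above the floor of 1 *Opn1mw* count.

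The lowest correlations were those of *7420701I03Rik* (-0.50), *Gcnt3* (-0.48), *Lpcat2* (-0.47), *Tmem219* (-0.45) and *Kctd18* (-0.44). *7420701I03Rik* is a lincRNA at chr12:11047813-11078742 on the plus strand and took more counts than any other gene named here, 6616 and 38917. Its level ran from 70.8 to 269 in the higher-share and from 89.6 to 5407 in the lower-share cells, with medians of 143 and 201. The log-fold was -1.05, with -1.09 and -1.002 in the plate sides and -0.71 without its highest cell. Within the 30 cells with 2 or more *Opn1mw* counts, the correlations of these 5 genes were between -0.45 and -0.19. Within the 50 cells with 1 count, where the share holds only the *Opn1sw* count, they were between -0.60 and -0.33.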

How the data were processed

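Single cones were sorted by GFP into 1 plate per library at PN24. The table the authors deposited holds unnormalized whole-number counts. Reads had been split by cell barcode, aligned with the CLC Genomics Workbench, cleared of PCR duplicates by an 8-nt molecular identifier and mapping position, and counted per gene with featureCounts. The study then summed the counts from both transcript ends. The genome is named in the study with a human build number, so positions were read from GENCODE vM21 (GRCm38). No batch correction was applied.

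Members were the uninjected cells with at least 5 opsin counts, split at the median M-opsin share. The cells held 995 to 98441 counts, with a median of 8361. Shallow cells give coarse levels, since 1 count is worth more per 10000 there. Levels, log-folds with a pseudocount of 1 and exact Poisson, Clopper-Pearson and conditional intervals were computed in Python 3.11.15 (scipy 1.17.1, numpy 2.4.6 and pandas 2.3.3) by code tested on simulated data. Genes had to be counted in 10% of the 80 cells. No test was run, since both sets come from 1 library. Neither doublets nor free RNA were modelled.

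Genes were named by a rule: the 10 highest and 10 lowest log-folds among genes counted in 25% of the cells, the 5 highest and 5 lowest rank correlations with the share, all counted members of 3 lists (opsin regulators, phototransduction activation, opsin neighbours) and the extremes of other lists; others are said to be chosen after their values were seen. *Dio2*, *Slc16a10* and *Thra* were also chosen in that way. Some genes that the rule names are not reported here. The members of the comparison, the gene lists and the alternatives were chosen with earlier results of these data known. The alternatives by the larger opsin count, by 2 or more *Opn1mw* counts and without the highest cell of a gene were added after the data had been seen.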

Additional observations from a re-analysis of the deposited data

How the results depend on the processing

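The count of genes above 0.3 was 1086 and that below -0.3 was 1082. It moved by more than 1.5 times in few settings. With a pseudocount of 0.1 the counts were 2154 and 3104, with genes in 25% of the cells 639 and 669, and without the highest cell of each gene 389 and 578. After thinning, 1777 genes were below, and 1456 above. All other settings gave 1086 to 1335 genes above and 865 to 1541 below. The share of calls that were above was 50.1%, against 41.0% with the smaller pseudocount and 40.2% without the highest cell. Median-ratio size factors shifted all genes by 0.12 on the log2 scale against the totals of the sets and gave 58.5%. Each log-fold named here passed 0.3 in size and changed sign in the setting given, and the cause was not tested. With at least 10 opsin counts per cell, *Clstn2* was at -0.15, *Dlk1* at -0.40, *Dmxl2* at 0.0105, *Itpr2* at -0.20 and *Tmem219* at 0.45. With 2 or more against 1 *Opn1mw* count, *Atf3* was at -0.0033, *Clstn2* at -1.37, *Cplx3* at 0.16, *Cst3* at -0.90, *Dlk1* at -1.66, *Edem1* at -0.52, *Ephb3* at 0.038, *Fau* at -0.52, *Gm12292* at -0.18, *Itpr2* at -1.62, *Pam16* at -0.34, *Pdc* at 0.17, *Prph2* at -0.77, *Rpl29* at 0.10, *St6gal1* at -0.38, *Tmem219* at 0.54, *Uqcc3* at 0.16, *Zfp790* at -0.31, *Znrf1* at 0.21 and *mt-Nd5* at -0.22. With at least 20 opsin counts, *Cdhr1* was at 0.10, *Clstn2* at -0.023, *Clu* at -0.20, *Cnga1* at 0.50, *Cplx3* at 0.17, *Dlk1* at -0.19, *Edem1* at -0.13, *Fam19a3* at 0.20, *Gm43657* at 1.87, *Gm47127* at 2.08, *Gnb1* at 0.30, *Itpr2* at -0.14, *Nob1* at 1.59, *Pdc* at 0.38, *Prph2* at -0.33, *Rora* at 0.013 and *Tmem219* at 0.43. By the larger opsin count, *Cdhr1* was at 0.19, *Clstn2* at -0.015, *Cngb3* at -0.64, *Crx* at -0.065, *Cst3* at -0.049, *Cystm1* at -0.036, *Dlk1* at -0.35, *Edem1* at -0.21, *Fau* at -0.074, *Gm12292* at -1.32, *Grk1* at -1.40, *Gucy2e* at 0.064, *Itpr2* at -0.50, *Ndufa6* at -1.13, *Pam16* at -0.58, *Pde6g* at -0.76, *Prph2* at -0.043, *St6gal1* at -1.01, *Xist* at -0.21, *Zfp790* at -2.14 and the median of the sex-linked list was -0.21. After thinning to 1412 counts, with 33 and 39 cells left, *Gnb3* was at -0.094, *Nr1d1* at 0.031 and *Prph2* at -0.36. With counts summed over each set, *Cdhr1* was at 0.0079 and *Prph2* at -0.30. Without the highest cell of the gene, *Actb* was at 0.054, *Apoe* at 0.033, *Car14* at 0.019, *Clu* at -0.23, *Cngb3* at -0.30, *Crx* at -0.10, *Edem1* at -0.031, *Grk1* at -0.23, *Prph2* at -0.28, *Xist* at -0.42 and the median of the sex-linked list was -0.24. Between the cells with the highest and the lowest shares, 26 and 27 in number, *Edem1* was at -0.0901, *Fam19a3* at 0.13, *Gm43657* at 0.053, *Gucy2e* at 0.11 and *Prph2* at -0.30. With the median taken within each plate side, *Rpl34* was at 0.70 and *Tmem219* at 0.26. With median-ratio size factors, *Cdhr1* was at 0.0395, *Pde6c* at 0.0083 and *Prph2* at -0.24. In columns 1 to 6, *Pde6c* was at 0.16, *Prph2* at -0.50 and *Xist* at -0.18. In columns 7 to 12, *Actb* was at 0.50, *Apoe* at 0.11, *Car14* at 0.0300, *Clu* at -0.12, *Cngb3* at -0.52, *Crx* at -0.18, *Grk1* at -0.48, *Sall3* at 0.021 and the median of the Müller glia markers list was 0.0300. Of 416 medians of lists under the alternatives 3 reversed. *Thrb*, *Chrnb4*, *Atp5b*, *Tmsb10* and *mt-Nd1* did not reverse in any setting. No paired analysis was possible because the comparison lies within 1 library. Depth limits the scarce genes: of the opsin regulators, 6 of 20 did not pass the filter of 10% of the cells.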

Other observations

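Genes not yet named that were past 0.3 in all 5 settings (median split, each plate side, larger opsin count, without the highest cell) were looked at after their values had been seen. Among the well counted ones above were 3 members of the respiratory chain lists and others in no list. The former were *Cox5b*, of complex IV, with 1195 and 1714 counts and a log-fold of 0.69, *Ndufa12* at 0.96 and *mt-Co3* at 0.60. The latter were the glycolytic enzyme *Gapdh* at 0.60, the glutathione transferase *Gstp1* at 0.77 and ferritin heavy chain *Fth1* at 0.64. *Gstp1* had mean levels of 36.2 in the 13 cells with more M-opsin and 8.58 in the 39 with more S-opsin, while its median was 4.66 in the higher-share and 4.62 in the lower-share cells.

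Among the well counted ones below were the calcium channel genes *Cacna1a*, with 561 and 1656 counts and a log-fold of -0.66, and *Cacna1h*, with 227 and 725 counts and -0.85, and the growth factor gene *Gdf10* at -0.57. *Cacna1a* was found in 38 of 39 and in 41 of 41 cells, with median levels of 13.1 and 17.6. That both calcium channel genes were below -0.3 in each plate side follows from how they were picked. No test was possible for any of these values.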
